A study of Homo sapiens with 16 samples.

Results

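The regions described here carried an H3K27ac peak in every list of MDA-MB-231 cells and in no list of Hs578T cells. Both lines are long-established models of human triple-negative breast cancer, a class that lacks oestrogen and progesterone receptors and HER2 amplification. Peaks from the 16 deposited lists that overlapped by 1 bp or more were joined into 64545 regions, and 84 of these met the rule. They were thus selected on the presence of called peaks, a measured value, and that presence is described here without a test. They are numbered m1 to m84 in the order of their sequence names. Each line had a control and a knockout (Fn14 KO) derivative, the latter made with the CRISPR vector TLCV2 and 2 guides against TNFRSF12A, the gene of the TWEAK receptor Fn14. Knockout cells were picked by western blot and checked by Sanger sequencing, and the study lists its genotyping primers as ones for CRISPR clones, without saying how many clones of each line went into the ChIP-seq. Cells of every group were starved for 8 h. The TWEAK groups then received 10 ng/ml of the cytokine for 48 h, with a fresh dose after 24 h, and the other groups stayed untreated. There were 2 samples in each of the 8 groups. The study's methods call its replicates of ChIP-seq in cell lines biological and say that cell-line experiments were repeated on separate days. The labels do not tie a sample to a culture or a day, and p-values measure the spread between these samples.

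H3K27ac is acetylated lysine 27 of histone H3, which is written by the coactivators p300 and CBP and marks active promoters and enhancers. Promoter acetylation is widely shared between cell types, whereas enhancers far from genes differ much more from one cell type to another. Several of the regions below lie on contigs, which are pieces of the hg38 reference that have not been placed on a chromosome or within one, and which often hold repeats such as satellite DNA or ribosomal DNA. A read from a repeat can match many copies, so a peak there cannot be assigned to a single copy in the cell, and how the authors' alignment treated such reads is not given in the sources used here.

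The sequences at the centres of the regions with the highest enrichment and of the largest clusters are shown first, because they show the contrast between repeats and single-copy DNA that runs through the group. Each is a 300 bp window on the plus strand of hg38, centred on the stretch covered by most lists. Capitals mark matches on either strand to a panel of transcription factor motifs, which are spelled out with their frequencies further below. Region m72 had the highest lowest-list enrichment (window chrUn_GL000216v2:159006-159305), m70 lies on the same contig (chrUn_GL000216v2:142336-142635), and m10 belongs to the largest cluster (chr14_GL000225v1_random:25511-25810). Region m23 lies near the end of chromosome 17 (chr17:83203268-83203567), m78 fills a short contig (chrUn_KI270333v1:1207-1506), and m82 is from a cluster of 2 on a further contig (chrUn_KI270744v1:124368-124667).
m72: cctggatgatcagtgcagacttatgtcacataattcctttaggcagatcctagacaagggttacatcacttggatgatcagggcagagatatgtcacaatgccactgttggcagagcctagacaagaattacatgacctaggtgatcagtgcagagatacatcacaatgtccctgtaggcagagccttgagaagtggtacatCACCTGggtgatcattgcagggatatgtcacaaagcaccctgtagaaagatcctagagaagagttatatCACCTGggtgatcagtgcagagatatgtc
m70: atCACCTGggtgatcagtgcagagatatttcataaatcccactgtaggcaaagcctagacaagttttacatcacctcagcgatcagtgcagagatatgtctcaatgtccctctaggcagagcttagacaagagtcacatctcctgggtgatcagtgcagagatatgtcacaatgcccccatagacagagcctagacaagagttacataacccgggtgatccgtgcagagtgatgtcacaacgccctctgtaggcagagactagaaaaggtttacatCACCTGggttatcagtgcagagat
m10: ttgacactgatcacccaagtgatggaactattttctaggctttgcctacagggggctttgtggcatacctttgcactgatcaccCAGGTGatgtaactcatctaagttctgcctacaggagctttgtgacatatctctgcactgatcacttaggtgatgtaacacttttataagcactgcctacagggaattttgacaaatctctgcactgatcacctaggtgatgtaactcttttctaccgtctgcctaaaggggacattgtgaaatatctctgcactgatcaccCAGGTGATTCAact
m23: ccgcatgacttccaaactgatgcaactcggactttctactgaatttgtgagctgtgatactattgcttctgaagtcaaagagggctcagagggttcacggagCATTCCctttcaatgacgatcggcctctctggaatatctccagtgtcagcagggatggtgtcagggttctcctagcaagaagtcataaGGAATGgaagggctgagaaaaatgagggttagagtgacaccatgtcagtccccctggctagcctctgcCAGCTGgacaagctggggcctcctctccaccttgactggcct
m78: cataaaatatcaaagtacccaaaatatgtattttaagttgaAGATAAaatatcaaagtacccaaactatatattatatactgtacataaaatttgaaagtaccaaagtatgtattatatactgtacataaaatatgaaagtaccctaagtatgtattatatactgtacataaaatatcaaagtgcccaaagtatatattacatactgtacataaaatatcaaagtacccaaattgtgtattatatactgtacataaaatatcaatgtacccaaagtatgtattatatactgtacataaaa
m82: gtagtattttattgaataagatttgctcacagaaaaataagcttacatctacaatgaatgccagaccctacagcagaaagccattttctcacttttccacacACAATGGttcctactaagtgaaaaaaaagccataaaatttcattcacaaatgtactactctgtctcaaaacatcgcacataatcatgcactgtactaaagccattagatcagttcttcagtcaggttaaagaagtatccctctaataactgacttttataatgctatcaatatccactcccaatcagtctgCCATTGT

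The windows of m72 and m70 show the same phrase, with small changes, several times along 300 bases, and m10 shows it on the opposite strand. In all 3 the capitals mark CACCTG or its reverse complement at the same place in the repeat unit, and in m10 the last copy runs into a match to the AP-1 motif. The m78 window is also a repeat, of AT-rich units, with a GC content of 23%. The m23 window has no such repeat, and every 31-base word (31-mer) in it occurs once in hg38. In the m82 window no 31-mer occurs only once.

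Between 39544 and 47197 peaks were listed per sample, over 64.2 to 88.9 Mb, and as the lists contain no reads the sequencing depth is unknown. The value compared below is the fold enrichment of a peak over the local background as deposited, with the largest peak of a list taken for each region. Across the 4 MDA-MB-231 groups, the correlation between replicates was 0.955 to 0.979 over the 29889 regions that had a peak in all 8 MDA-MB-231 lists. A start-site peak in all 8 MDA-MB-231 lists was present in 16 of 30 luminal and epithelial marker genes. It was present in 11 of 26 basal and myoepithelial and 12 of 31 mesenchymal and fibroblast ones. In all 8 Hs578T lists the counts were 19, 13 and 13. In all 16 lists they were 16, 11 and 12, and 57.3% of all protein-coding genes had such a peak. None of the 3 marker lists held a gene whose start site had a peak in all lists of 1 line and in none of the other. These counts therefore do not verify the identity of either line.

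Regions shared by every list of 1 line and absent from the other were rare. Of 5360 regions with peaks in MDA-MB-231 lists and in no Hs578T list, 3517 were found in 1 list and 84 in all 8. In the mirror class, 181 of 10635 regions with Hs578T peaks alone were found in all 8 Hs578T lists. A peak in all 16 lists was present in 28337 regions. These counts follow from the rule and are a description.

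**Figure D1:**
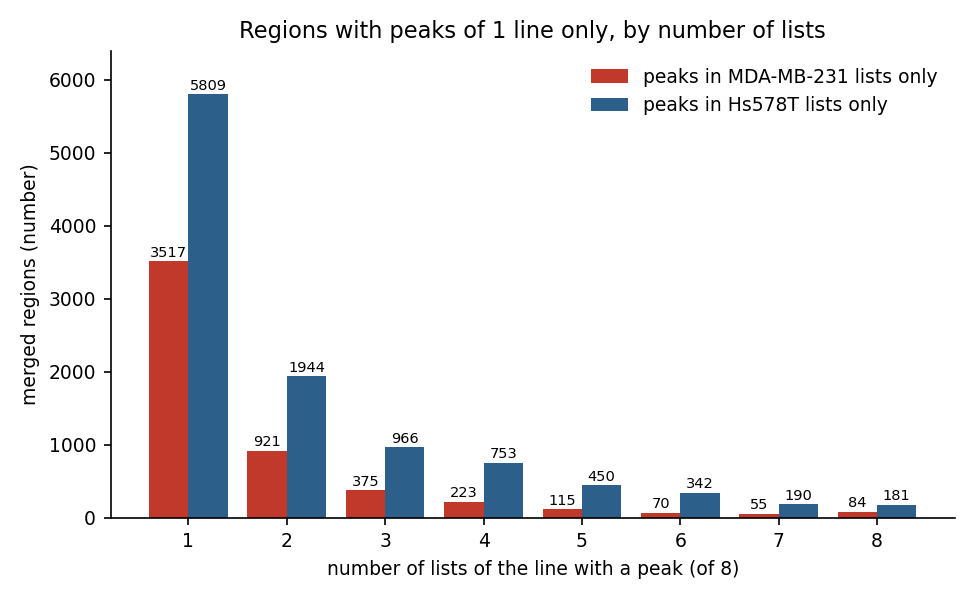
Number of merged regions (vertical axis) with peaks in lists of MDA-MB-231 only (red) or of Hs578T only (blue), by the number of lists of that line with a peak (horizontal axis, 1 to 8). The 84 regions described here are the red bar at 8, and the 181 Hs578T-specific regions are the blue bar beside it.

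The regions were weak peaks on average. Their mean fold enrichment over the 8 MDA-MB-231 lists ranged from 2.92 to 9.97 with a median of 4.09, and 76 of the 84 lay below the median of the 29889 regions. In each list the median over the 84 regions was between 3.93 and 4.41, whereas the regions found in all 16 lists had medians between 6.27 and 8.41. In 29 regions at least 1 list had a −log10 q-value under 2, close to the calling threshold. Just outside the rule, 55 regions with 7 MDA-MB-231 lists and no Hs578T list had a median mean fold enrichment of 3.598, and 32 regions with all 8 MDA-MB-231 lists and 1 Hs578T list had 4.09. For those 32, the median fold enrichment of the Hs578T peak was 2.87, and 15 of the 32 peaks came from untreated Hs578T control replicate 1. The edge of the rule thus ran through peaks of similar height.

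The most frequent location was unusual, with 24 of the 84 regions (28.6%) on 12 contigs that together held 88, or 0.136%, of all merged regions. All contigs together held 0.293%. The 181 Hs578T-specific regions had 0 on contigs. The regions in all 16 lists had 18, or 0.0635%. Of the 12 contigs, 9 had no Hs578T peak in any list, and these held 19 of the 24 regions. The contig share rose with the number of lists in MDA-MB-231, from 1.41% of regions found in 1 to 3 lists to 8.86% in 4 to 7 lists, whereas in Hs578T it was 0.0918% and 0.0576%. Each MDA-MB-231 list held 93 to 145 contig peaks and each Hs578T list 31 to 39, so the lines did not overlap.

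**Figure D2:**
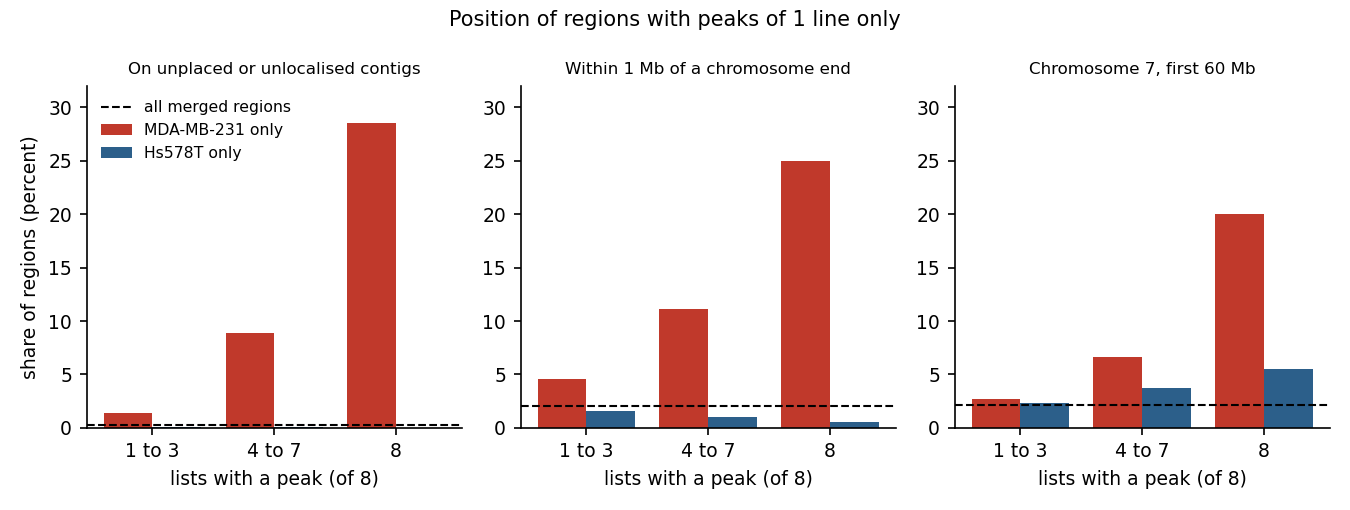
Share of regions in percent (vertical axes) on contigs (left), and, of regions on assembled chromosomes, within 1 Mb of a chromosome end (middle) or in the first 60 Mb of chromosome 7 (right), for regions found in 1 to 3, 4 to 7 or 8 lists of 1 line and no list of the other (horizontal axes; red, MDA-MB-231; blue, Hs578T; dashed line, all merged regions). The red bars at 8 lists are 28.6%, 25% and 20%, each the highest in its panel.

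The largest cluster lay on chr14_GL000225v1_random, a contig of 211 kb with 33 regions, none of which held a Hs578T peak. It comprised 8 regions (m10 to m17) between positions 25516 and 133931. The second contig, chrUn_GL000216v2, held 4 regions (m70 to m73) between positions 142318 and 168887. Comparison of all 31-mers tied these contigs together: 10 of the 12 regions formed 1 family linked by pairs in which at least 10% of the 31-mers of one region lay in the other, and the remaining pair, m11 and m70, spanned the same contigs. The weakest link was that of m12, which held 11.7% of the 31-mers of m10 but shared at most 9.53% of its own with any one region. Regions m14 and m73, on different contigs, shared 2210 31-mers, which is 60.6% of those in m14. In m12 the sequence matched itself best when shifted by 68 bp, with 54.0% identical bases, and in m16 by 69 bp, with 61.9%, which is the repeat visible in the windows of m72, m70 and m10. The 12 regions are therefore not independent sequences.

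Contig regions included the strongest of the group. Region m72 had fold enrichments of 12.55 and 8.52 in untreated control, 9.72 and 8.04 in TWEAK-treated control, 9.75 and 10.9 in untreated Fn14 KO and 9.97 and 10.4 in TWEAK-treated Fn14 KO lists, and the untreated control lists overlapped each of the other groups. Of the 10 regions with the highest lowest-list enrichment, 7 were on contigs (m72, m78, m71, m11, m12, m14 and m10), and the 3 others were m23, m56 and m51 on chromosomes 17 and 7. Among the 24 contig regions 9 had a fold enrichment of at least 5 in every list, against 3 of the 60 on chromosomes.

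Other contig regions carried sequence of recognisable kinds. Regions m35 (9356 bp, chr22_KI270733v1_random) and m74 (17521 bp, chrUn_GL000220v1) shared 75.3% and 68.8% of their 31-mers with RNA45SN2, a copy of the 45S ribosomal RNA gene that encodes the precursor of the large ribosomal RNAs. Their fold enrichments were low and even, at 3.30 to 4.08 in m35 and 3.19 to 4.001 in m74. Region m75, the widest of all at 18043 bp, followed m74 on the same contig and shared no 31-mers with that gene. Region m77 filled 93.3% of the contig chrUn_GL000226v1 and matched itself best at a shift of 342 bp. Region m81 on chrUn_KI270412v1 did so at 171 bp, which is the length of the alpha-satellite monomer found at human centromeres. In m28, on chr1_KI270709v1_random, 23.6% of bases lay in GGAAT or ATTCC, the unit of human satellites 2 and 3, and m28 had the lowest fold enrichment of any list, 1.86.

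Regions m78, m79 and m80 covered 97.4%, 96.7% and 95.4% of 3 contigs of 2.70, 1.03 and 1.12 kb. Their sequences had a GC content of 24.1%, 24.5% and 25.3% and matched themselves best at a shift of 42 bp, with 74.7%, 83.8% and 85.2% identical bases. Of the contig regions they had the largest fitted differences between untreated Fn14 KO and control cells, whose values are given with that comparison.

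Over all 24 contig regions the median share of 31-mers that occurred once in hg38 was 28.7%, and 18 were under 50%. Over the 60 regions on chromosomes the median was 94.5%, and over the Hs578T-specific regions it was 95.9%. The gene annotation used here covers the chromosomes alone, so contig regions have no nearest gene.

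**Figure D3:**
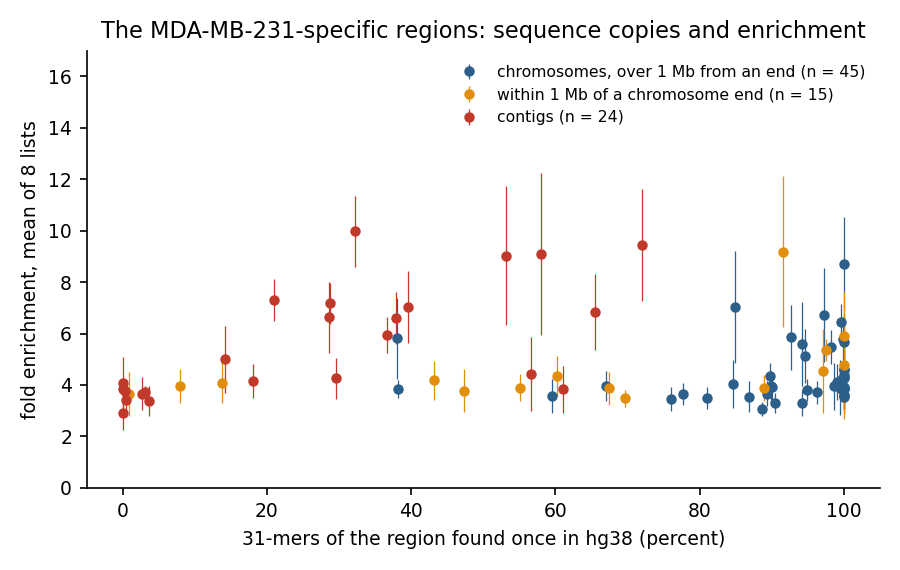
Each point is 1 of the 84 regions, with the percent of its 31-mers found once in hg38 (horizontal axis) against its mean fold enrichment over the 8 MDA-MB-231 lists (vertical axis; bars, SD over the 8 lists). Contig regions (red) lie at or below 71.98% and reach both the lowest (2.92) and the highest (9.97) mean fold enrichment, and most regions away from chromosome ends (blue) lie above 90%.

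Of the 60 regions on chromosomes, 15 (25%) lay within 1 Mb of a chromosome end, at 10 ends of 10 different chromosomes. The share was 2.09% over all merged regions and 0.552% over the Hs578T-specific ones. As on contigs it rose with the number of MDA-MB-231 lists, from 4.53% at 1 to 3 lists to 11.1% at 4 to 7 lists, while it fell in Hs578T from 1.56% to 0.980%. The lists as wholes differed little, with 2.03% to 2.18% of peaks near an end in MDA-MB-231 lists and 1.83% to 1.90% in Hs578T lists. The strongest of these regions was m23 (chr17:83202712-83204805), outside protein-coding genes and 110 kb from the nearest start site, that of METRNL, which encodes a secreted protein related to meteorin. Its fold enrichments were 8.19 and 10.0 in untreated control, 12.1 and 14.7 in TWEAK-treated control, 6.17 and 6.46 in untreated Fn14 KO and 8.64 and 7.27 in TWEAK-treated Fn14 KO lists, so the TWEAK lists were the higher ones in both genotypes. Its neighbour m24 lay 14.1 kb from the end of the chromosome, had 7.92% single-copy 31-mers and matched itself best at a shift of 93 bp.

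Several regions at chromosome ends were repetitive too. Region m62 (chr9:10257-14710) began 10.3 kb from the end of the sequence of chromosome 9, held 17 telomere repeat hexamers and overlapped an exon of WASHC1, a subunit of the WASH complex that directs actin assembly on endosomes. With m63 (chr9:37757-39039), in an intron of the same gene, it had 13.7% and 0.878% single-copy 31-mers, and copies of WASHC1-like sequence exist at many chromosome ends, so neither can be assigned to this locus with certainty. Region m34, in an intron of PCMTD2 on chromosome 20, held 71 telomere hexamers. Region m3, in an intron of CFAP46 on chromosome 10, matched itself at a shift of 38 bp with 85.2% identical bases. Regions m1 (nearest PGBD2, chromosome 1), m41 (nearest DUSP22, chromosome 6) and m83 (contig chrUn_KI270744v1) shared 31-mers, with 17.8% of those in m1 also present in m41. The median single-copy share was 67.4% over the 15 regions near ends and 97.3% over the other 45 on chromosomes.

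Chromosome 7 held 17 of the 60 regions (28.3%), although it held 5.58% of all merged regions on chromosomes. Of these, 12 lay in its first 60 Mb, which makes 20% of the 60 regions, against 2.15% of all merged regions and 5.52% of the Hs578T-specific ones. Regions found in 4 to 7 MDA-MB-231 lists had 6.64% there and those found in 1 to 3 lists 2.74%. Both lines placed the same share of all their peaks in these 60 Mb, 1.98% to 2.07% in each list of MDA-MB-231 and 1.98% to 2.07% in each list of Hs578T. Chromosome 9 followed with 8 regions, and chromosomes 2 and 17 with 5 each.

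Within chromosomes the regions lay away from promoters. None of the 60 regions on chromosomes had a protein-coding transcript starting inside it or up to 2 kb away. The annotation covers no contigs. An exact binomial interval reaches 5.96%, but it takes the regions as independent draws. They were selected by the rule, and 16 of the 60 had another within 50 kb. On chromosomes 9.39% of the Hs578T-specific regions, 38.9% of regions in all 16 lists and 22.8% of all merged regions had such a start. Of the 60 regions on chromosomes, 26 lay in protein-coding genes, 21 of them in introns and 5 over an exon. Coding exons were touched by 3 regions, m44 in PDE1C, m57 in STMP1 and m67 in PAPPA. The other 34 lay outside protein-coding genes, 7 of them over a long non-coding RNA gene, such as m84 over exons of FIRRE, an X-linked RNA that organises nuclear architecture, and m30 over LINC01865. The median distance to a start site was 84.04 kb, against 43.5 kb for Hs578T-specific regions, 11.3 kb for regions in all 16 lists and 20.03 kb for all merged regions.

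The 60 regions had 50 different nearest genes. A start-site peak was present in all 16 lists for 23 of the 50 and in no list for 24. Of all 19663 protein-coding genes these were 11273 and 6519. Start-site peaks of 1 line alone were found for 0 of the 50, a set too small to compare such a rare class with all genes. Among all 19663, HS3ST3B1, a heparan sulphate 3-O-sulphotransferase, was the 1 gene with a start-site peak in all 8 MDA-MB-231 and no Hs578T list. The merged region over that start also held Hs578T peaks farther off and so was not counted among the 84. Its paralogue HS3ST3A1, listed without a start-site peak in any list, had m20 in an intron and m21 at 127 kb from its start site. In the opposite direction 6 genes had start-site peaks in all Hs578T lists alone, ABCC11, ANXA10, IPCEF1, LAMA4, PCDH20 and PEAR1. Of 318 genes in lists of lineage factors, cytokines, adhesion molecules, proteases and similar groups, RUNX2, a transcription factor of bone development, was the 1 gene with a region within 20 kb or in its body. That region (m42, chr6:45453106-45455122) was intronic, with low fold enrichments of 2.68 to 3.42.

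The widths had a median of 1731.5 bp and ran from 278 to 18043 bp. Hs578T-specific regions had a median of 1324 bp, all merged regions of 1460 bp and regions in all 16 lists of 2639 bp. At least 3 kb was reached by 18 regions, 10 on contigs and 8 on chromosomes. At least 5 kb was reached by 8 regions, and the 3 of these on chromosomes were all in PAPPA. A region spans all peaks merged into it. Contig regions had a median of 2588 bp and those on chromosomes of 1683 bp.

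Another region lay within 50 kb of 32 of the 84 (38.1%), and of 16 of the 60 on chromosomes (26.7%). For Hs578T-specific regions the share was 8.29%. Regions of all kinds are far more numerous and had a neighbour of any kind within 50 kb in 93.8% of cases, so the shares are comparable only between sets of similar size. There were 52 single regions, 10 pairs, 1 group of 4 and 1 group of 8. The distance to the nearest Hs578T peak on the same sequence had a median of 30.4 kb over the 65 regions that had one and reached 656 kb. It was under 5 kb for 10 regions, such as m19 in NSMCE1 at 0.414 kb and m53 near GRB10, an adaptor of the insulin receptor, at 0.807 kb. For the 181 Hs578T-specific regions the distance to an MDA-MB-231 peak had a median of 12.8 kb and reached 1640 kb. It was under 5 kb for 53 of them.

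PAPPA encodes pappalysin-1, a secreted metalloprotease that cleaves binding proteins of insulin-like growth factors, and its gene body on chromosome 9 held 4 regions. All lay in a stretch of 396 kb without any Hs578T peak (chr9:116152971-116548710), although the PAPPA start site had a peak in all 16 lists. Regions m66 (chr9:116189200-116194803), m67 (chr9:116201875-116209163), m68 (chr9:116275490-116281892) and m69 (chr9:116285652-116288829) were 5604, 7289, 6403 and 3178 bp wide and formed 2 pairs within introns, with m67 also over a coding exon. Their single-copy share was 94.7% to 99.8%. Mean fold enrichments were 5.81 ± 0.84 in m66, 5.47 ± 0.66 in m67, 6.72 ± 1.83 in m68 and 5.14 ± 1.05 in m69 (SD over 8 lists). They were thus wider and stronger than most regions on chromosomes.

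PDE1C, a calcium and calmodulin-dependent phosphodiesterase of cyclic nucleotides, held 3 regions on chromosome 7 within 752 kb free of Hs578T peaks (chr7:31411016-32162665). These were m44 (chr7:31815164-31816817), m45 (chr7:31936802-31939744) and m46 (chr7:31947478-31950864), and the start sites of PDE1C had no peak in any list. A longer stretch without Hs578T peaks, 1431 kb (chr7:48638236-50069211), held m51, nearest to the phosphatase-related gene CDC14C, and m52. Region m51 (chr7:49294154-49295433) had fold enrichments of 5.59 to 7.35 over the 8 lists and stood 656 kb from the nearest Hs578T peak, the farthest of all. VIPR2, a receptor of vasoactive intestinal peptide, was nearest to m58 and m59 near the other end of chromosome 7, and AOAH, an enzyme that deacylates bacterial lipopolysaccharide, held m48 and m49 in an intron.

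Single regions marked further named genes. Region m56 (chr7:130372682-130374809) lay 6.59 kb from a start of CPA1, a pancreatic carboxypeptidase that had no start-site peak in any list. Its fold enrichments were 10.0 and 11.8 in untreated and 9.55 and 8.89 in TWEAK-treated control lists. In Fn14 KO lists they were 8.46 and 7.44 untreated and 7.64 and 5.82 with TWEAK. Both control groups thus lay above both Fn14 KO groups as deposited. List medians over all regions tested below were also higher in control cells, at 2.818 to 3.014 in log2 against 2.595 to 2.817. With each list centred on its median, the untreated Fn14 KO minus control difference in m56 was −0.25 ± 0.12 SE in log2. That difference did not pass the test (limma adjusted p = 0.144). Regions m8 and m9 lay over 1 Mb from TMEM121 towards the end of chromosome 14, and m5 near the betaine and GABA transporter gene SLC6A12. Introns or exons of MLLT3, a chromatin reader of the super elongation complex, and NEDD4L, an E3 ubiquitin ligase, held m64 and m26. Regions m25 near METTL4, m61 near the hyaluronan synthase HAS2, m65 near the translocon subunit SEC61B and m22 near CDRT15L2 lay between 120 and 546 kb from those genes. No region met the further rule of naming genes by a start-site peak free of Hs578T peaks.

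Motifs were searched in the 300 bp window of each region on both strands. AP-1 (TGANTCA), the motif of FOS and JUN dimers, was present in 22 windows (26.2%), 18 of 60 on chromosomes (30%) and 4 of 24 on contigs (16.7%). It was present in 30.4% of Hs578T-specific windows, 34.3% of windows of regions in all 16 lists away from start sites and 22.3% of all windows. CACCTG, bound by ZEB and SNAI factors, was present in 12 of the 24 contig windows (50%) but in 11.7% of those on chromosomes and 20.8% of all windows, and the 12 contig windows are those of m10 to m17 and m70 to m73, which share the repeat shown above. RUNX (TGTGGT) was present in 26.7% of windows on chromosomes against 21.1% of all, and TEAD (GGAATG) in 11.7% against 18.3%. In Hs578T-specific windows these were 20.4% and 22.1%, and in windows of all 16 lists away from start sites 24.9% and 22.1%. The GC-rich SP and KLF motif (GGGCGG) was present in 3.33% of windows on chromosomes, 10.0% of windows in all 16 lists away from start sites and 17.1% of all windows. These are shares of letters in a window and are given without a test.

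Further motifs searched were CCGGAAG for factors of the ETS family, AGATAA for zinc-finger factors of the GATA family, TGTTTAC for the forkhead family, ACAATGG for the SOX family, CAGCTG for bHLH factors and TAATTA for homeodomain factors. The list also held NF-kB (GGGNNTTCC), C/EBP (TTGCNCAA), CTCF core (CCACNAGG), CREB (TGACGTCA), NRF1 (GCGCATGC) and the POU octamer (ATGCAAAT). Homeobox was present in 10.7% of the 84 windows against 6.67% of all windows, and GATA in 15.5% against 15.2%. Hs578T-specific windows had more of both, 12.2% with homeobox and 21.5% with GATA. CREB and NRF1 had 0 matches in the 84 windows, with 0.448% and 0.857% of all windows. CTCF core stood at 4.76% against 4.52%. The median GC content of the windows was 45.5%, against 46.7% over all windows.

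The rule did not use differences among the MDA-MB-231 lists, so these were tested with limma on log2 fold enrichment, centred on the median of each list and fitted to all 29889 regions with a peak in all 8 MDA-MB-231 lists. Differences below are in log2 fold enrichment, with the standard error of the fit, and adjusted p-values are Benjamini-Hochberg values over all 29889 regions. The 3 contrasts that use untreated control lists share them, and so are not independent. Every list holds a peak in these regions, so a difference is one of height and not of presence.

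**Figure D4:**
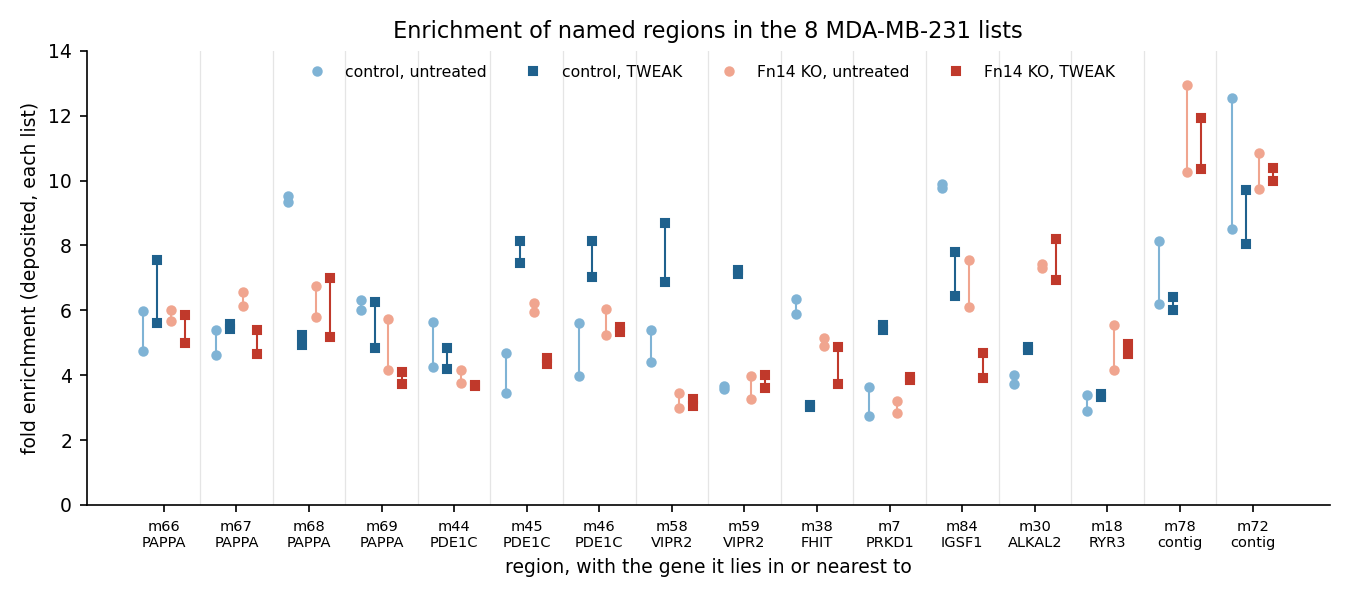
Deposited fold enrichment (vertical axis) of 16 named regions (horizontal axis, with the gene each lies in or nearest to) in each of the 8 MDA-MB-231 lists, with the 2 replicates of a group joined by a line (light blue, untreated control; dark blue, TWEAK control; light red, untreated Fn14 KO; dark red, TWEAK Fn14 KO). In m45, m46, m58, m59 and m7 both TWEAK control lists lie above both untreated control lists, in m68, m38 and m84 they lie below, and in m30 and m78 all Fn14 KO lists lie above all control lists.

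TWEAK in control cells was followed by changes in both directions. Of the 84 regions 10 rose (11.9%) and 10 fell (11.9%), against 17.6% and 18.8% of all regions tested. In this fit the shares of the 84 lay below the background in both directions. Their median standard error was larger, 0.16 against 0.13 in all tested. In a fit to the regions below the median fold enrichment, added after the data were seen, 11 of 76 rose and 7 fell. Of all 14944 regions in that fit, 2520 rose and 2552 fell. The lists of the 2 groups did not overlap in 21 regions upwards and 28 downwards (25% and 33.3%), against 32.1% and 37% of all tested. With 1 list left out a group keeps 1 sample, so the median difference over the 84 is given, which was −0.15 with all lists. It was 0.01 without untreated control replicate 1 and −0.17 without untreated control replicate 2. Without TWEAK control replicate 1 it was −0.14, and without TWEAK control replicate 2 it was −0.05. Without centring 12 rose and 7 fell, against 5337 and 3041 of all 29889 tested. With quantile normalisation 12 rose and 5 fell, against 4430 and 4520.

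The largest rise was near VIPR2, where m59 (chr7:159217451-159219503) had fold enrichments of 3.58 and 3.67 in untreated and 7.25 and 7.10 in TWEAK-treated control lists (log2 difference 0.90 ± 0.14 SE, limma adjusted p = 0.000116). In Fn14 KO cells the same region had 3.97 and 3.26 untreated and 3.59 and 4.02 with TWEAK, and these overlap. Its neighbour m58 had 4.41 and 5.38 untreated against 8.68 and 6.88 with TWEAK in control cells (0.58 ± 0.15, limma adjusted p = 0.00654), while both pairs of Fn14 KO lists lay between 3.0003 and 3.44. The call for m58 was lost without untreated control replicate 1 (0.52) or TWEAK control replicate 1 (0.39). When covered base pairs replaced fold enrichment, the calls for m59 (0.43) and m58 (0.19) were both lost. Fewer regions passed on that measure, 851 of all 29889 upwards and 903 downwards, against 5265 and 5607 on fold enrichment.

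In PDE1C, m45 rose from 3.44 and 4.70 in untreated to 7.45 and 8.13 in TWEAK-treated control lists (0.87 ± 0.14, limma adjusted p = 0.000158). Region m46, the next peak region along the chromosome, rose from 3.97 and 5.61 to 8.13 and 7.04 (0.59 ± 0.14, limma adjusted p = 0.00406), and lost its call without untreated control replicate 1 (0.43) or TWEAK control replicate 1 (0.47). The third PDE1C region, m44, did not pass, with 4.26 and 5.64 untreated and 4.19 and 4.82 with TWEAK. Region m7 (chr14:29236504-29237670), which lies 397 kb from the nearest start site, that of the protein kinase D1 gene PRKD1, rose from 2.75 and 3.64 to 5.55 and 5.38 (0.70 ± 0.14, limma adjusted p = 0.000902). In Fn14 KO cells m7 had 3.20 and 2.84 untreated and 3.95 and 3.84 with TWEAK (0.43 ± 0.14, limma adjusted p = 0.818). The difference between the 2 effects in m7 did not pass (0.27 ± 0.20, limma adjusted p = 0.357). On covered base pairs the calls for m45 (0.47) and m7 (1.37) were lost. Other regions that rose were m23 near METRNL (0.47), m48 in AOAH (0.53), m50 in the E3 ubiquitin ligase gene HECW1 (0.49), m21 near HS3ST3A1 (0.42) and m29 near FAM110C (0.41).

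The largest falls were intronic. Region m38 (chr3:60742161-60743943) in FHIT, a diadenosine triphosphate hydrolase gene that spans a common fragile site, fell from 6.35 and 5.89 in untreated to 3.08 and 3.01 in TWEAK-treated control lists (−1.09 ± 0.16, limma adjusted p = 5.78e-05). Over the 15 alternatives, which include covered base pairs, its difference lay between −2.30 and −0.90. Those that leave out a Fn14 KO list cannot move it, since this contrast uses control lists alone. Region m68 in PAPPA fell from 9.52 and 9.33 to 5.24 and 4.92 (−0.98 ± 0.14, limma adjusted p = 4.71e-05), and lost its call on covered base pairs (−0.53). The other PAPPA regions did not pass: m66 had 4.76 and 5.99 untreated and 7.55 and 5.60 with TWEAK, m67 had 5.40 and 4.61 untreated and 5.43 and 5.56 with TWEAK, and m69 had 6.31 and 6.001 untreated and 6.24 and 4.84 with TWEAK. Regions of 1 gene therefore gave different readings.

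Region m84 (chrX:131782917-131785130), over FIRRE and nearest to IGSF1, an immunoglobulin superfamily membrane protein of the pituitary, fell from 9.78 and 9.89 to 6.44 and 7.80 (−0.56 ± 0.13, limma adjusted p = 0.00328), and lost its call without TWEAK control replicate 1. In AOAH, m49 fell from 4.45 and 4.34 to 2.86 and 3.14 (−0.64 ± 0.17, limma adjusted p = 0.00796), whereas its neighbour m48, less than 1 kb away, rose from 2.74 and 3.55 to 4.75 and 4.81. The call for m49 was lost without untreated control replicate 1 or TWEAK control replicate 1, and its direction turned when covered base pairs replaced fold enrichment (0.46). Region m24 near METRNL (−0.53) lost its call without untreated control replicate 1 or either TWEAK control replicate, under quantile normalisation and on covered base pairs (−0.82). The remaining falls were m22 near CDRT15L2 (−0.56), m12 and m79 on contigs (−0.51 and −0.48), m47 in BBS9 (−0.49) and m56 near CPA1 (−0.33).

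In Fn14 KO cells 0 of the 84 regions passed in either direction with TWEAK, and of all regions tested 0% passed upwards and 0% downwards (limma, smallest adjusted p of the 84 regions 0.818). At an unadjusted p under 0.05, 5 of the 84 were higher (5.95%) and 3 lower (3.57%), against 2.96% and 2.91% of all tested. The lists of the 2 groups did not overlap in 15 regions upwards and 12 downwards (17.9% and 14.3%), against 15.8% and 18.5% of all tested. The smallest unadjusted p was that of m84, which had 7.55 and 6.10 untreated and 4.67 and 3.91 with TWEAK. Its difference was −0.60 ± 0.13, beside −0.56 ± 0.13 in control cells. The difference between these 2 effects did not pass (0.04 ± 0.19, limma adjusted p = 0.901). A p that misses the threshold does not show that a region is unaffected.

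The TWEAK effect in control cells minus that in Fn14 KO cells was tested directly. It passed the test with a positive value in 4 regions (4.76%, against 12% of all tested) and with a negative value in 7 (8.33%, against 10.4%). Called or not, the value was above 0 in 34 of the 84 (40.5%, against 46.8% of all tested). In m45 in PDE1C the difference was 1.26 ± 0.20 (limma adjusted p = 0.000342), since the TWEAK lists were higher in control cells but, at 4.35 and 4.54 against 6.21 and 5.95 untreated, lower in Fn14 KO cells. In m68 in PAPPA it was −0.99 ± 0.20 (limma adjusted p = 0.00207), with 6.76 and 5.78 untreated and 6.98 and 5.19 with TWEAK in Fn14 KO cells, which overlap. In m38 in FHIT it was −0.92 ± 0.23 (limma adjusted p = 0.00791). In m59 near VIPR2 it was 0.75 ± 0.20 (limma adjusted p = 0.0123), and 0.63 without TWEAK Fn14 KO replicate 1. On covered base pairs the calls for m45, m68, m38 and m59 were lost, and that for m38 also under quantile normalisation. On the contigs, m12 had the lowest value, −1.06 ± 0.23 (limma adjusted p = 0.00408), with 9.85 and 8.97 untreated and 8.596 and 5.72 with TWEAK in control cells against 9.14 and 8.53 and then 11.9 and 12.8 in Fn14 KO cells. The call for m12 was lost on covered base pairs too.

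The calls m50, m46, m22, m15, m81 and m82 for this difference lay nearer the threshold. With 1 list left out a group keeps 1 sample, so the median over the 84 is given, which was −0.06 with all lists. It was 0.02 without untreated control replicate 1 and −0.10 without TWEAK control replicate 1. Without untreated Fn14 KO replicate 1 it was −0.01, and without TWEAK Fn14 KO replicate 1 it was −0.07. Without centring 6 calls were positive and 5 negative, against 3845 and 1100 of all 29889 tested. With quantile normalisation 4 and 2 were, against 2780 and 2353. With the replicate number as a block 2 were positive and 7 negative, against 3614 and 3143 of all tested, the calls for m46 and m50 being lost.

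**Figure D5:**
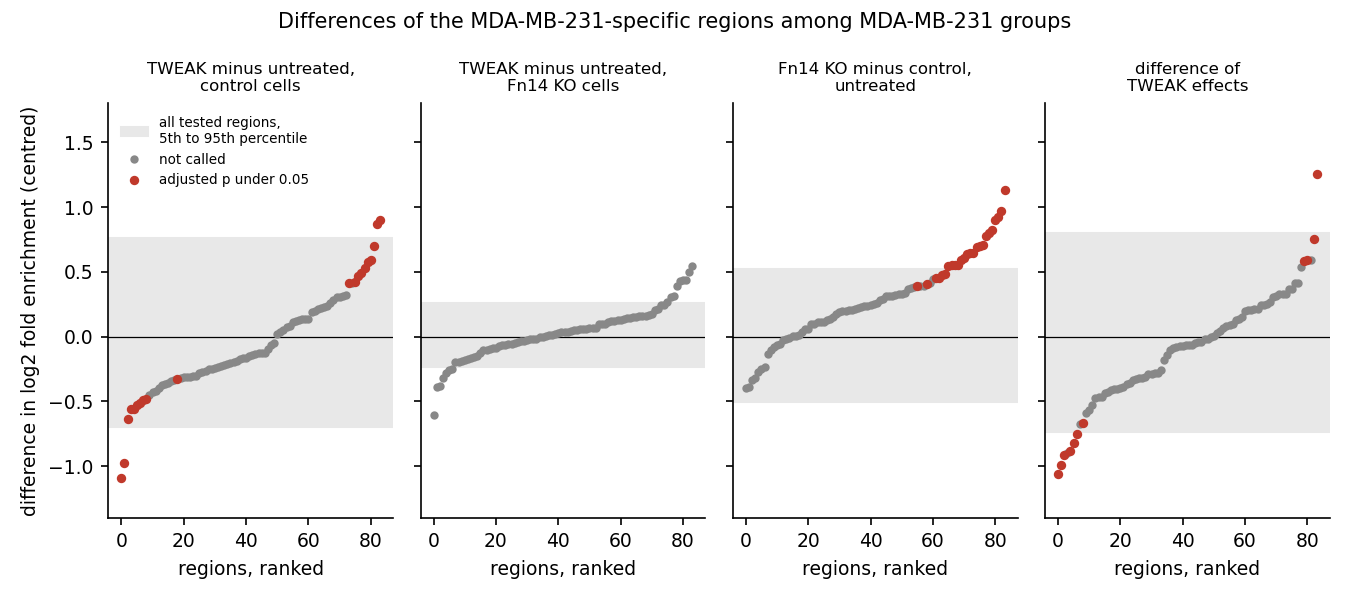
Differences in centred log2 fold enrichment (vertical axis) of the 84 regions, ranked by size (horizontal axes), for TWEAK minus untreated in control cells, TWEAK minus untreated in Fn14 KO cells, Fn14 KO minus control in untreated cells and the difference of the TWEAK effects (left to right; red, limma adjusted p under 0.05; grey points, not called; grey band, 5th to 95th percentile of all 29889 regions). In the panel of Fn14 KO against control all 25 called regions lie above 0, and in the panel of TWEAK in Fn14 KO cells no region is called.

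Between untreated Fn14 KO and untreated control cells the regions leaned one way. On the centred scale 25 were higher in Fn14 KO cells (29.8%, against 10.2% of all tested) and 0 were lower (0%, against 13.5%). The fitted difference was above 0 in 69 of the 84 (82.1%) and in 48.4% of all tested, with a median of 0.26 in the 84 and −0.01 in all. The lists did not overlap in 45 regions upwards and 6 downwards (53.6% and 7.14%), against 29.4% and 32.9% of all tested. With 1 list left out a group keeps 1 sample, so the median is given. Over the 84 it was 0.31 without untreated control replicate 1 and 0.20 without untreated control replicate 2. Without untreated Fn14 KO replicate 1 it was 0.34, and without untreated Fn14 KO replicate 2 it was 0.18. Over all tested regions these medians lay between −0.03 and −0.002.

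This lean moved with the scale. Without centring the median of all tested regions shifted to −0.22, and 12 of the 84 were higher and 7 lower (14.3% and 8.33%, against 2.42% and 24.9% of all tested). The interquartile range of log2 fold enrichments over all tested regions was 1.27 to 1.39 in the 4 control lists and 1.01 to 1.12 in the 4 Fn14 KO lists. Of the 84 regions, 76 lay below the median mean fold enrichment of all tested. A fit to the 14944 regions below that median was therefore added after the data were seen. In it 14 of the 76 were higher and 3 lower (18.4% and 3.95%, against 6.83% and 6.96%). In every list the median log2 value of the 84 lay below the first quartile of all tested regions, 2.12 to 2.41. That fit therefore does not match the 84 in height. The uncentred medians of the 84 overlapped between the genotypes, at 1.99 to 2.09 in control and 1.97 to 2.14 in Fn14 KO lists. The part of the narrower range in the lean was not tested further. On covered base pairs 1 of the 84 was higher and 1 lower. Of all 29889 regions 42 were higher and 41 lower, so few passed on that measure. Its median difference was 0.17 in the 84 and 0.003 in all tested.

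The largest difference was that of m30 (chr2:317245-318871), over LINC01865 and 29.2 kb from the start of ALKAL2, which encodes a ligand of the receptor tyrosine kinase ALK. It had fold enrichments of 3.997 and 3.73 in untreated control and 7.42 and 7.31 in untreated Fn14 KO lists (1.13 ± 0.14, limma adjusted p = 0.000115), and with TWEAK 4.77 and 4.87 in control and 8.20 and 6.94 in Fn14 KO lists. All 4 Fn14 KO lists lay above all 4 control lists. Over the 15 alternatives, which include covered base pairs, the untreated difference lay between 0.93 and 1.73. Those that leave out a TWEAK list cannot move it. On the contigs, m79 had 7.84 and 6.53 in untreated control and 11.04 and 13.4 in untreated Fn14 KO lists (0.97 ± 0.16, limma adjusted p = 0.000793). The related m78 had 8.14 and 6.19 against 10.3 and 13.0 (0.90), and m80 had 3.84 and 3.08 against 5.03 and 6.38 (0.92), so the 3 AT-rich contigs were all higher in Fn14 KO cells.

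Region m18 (chr15:33278571-33280561), 31.4 kb from the start of the ryanodine receptor gene RYR3, had 3.38 and 2.89 in untreated control and 5.55 and 4.17 in untreated Fn14 KO lists (0.82 ± 0.15, limma adjusted p = 0.00167). Region m45 in PDE1C was higher too (0.80 ± 0.14, limma adjusted p = 0.0011), with 3.44 and 4.70 in control and 6.21 and 5.95 in Fn14 KO lists. Region m31, 18.5 kb from the start of EVA1A, which acts in autophagy, had 3.08 and 3.86 against 5.90 and 4.46 (0.78 ± 0.15, limma adjusted p = 0.00167). The calls for m79, m45, m18 and m31 were lost when covered base pairs were used. The other called regions had differences from 0.39 to 0.71 and included m67 in PAPPA (0.55), m42 in RUNX2 (0.48), m20 in HS3ST3A1 (0.59), m62 and m63 in WASHC1 (0.48 and 0.64) and m53 near GRB10 (0.40).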

How the data were processed

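H3K27ac ChIP-seq was performed by the authors in the 16 samples, and 1 list of peaks per sample was deposited. Per the study's methods, the authors used Trimmomatic for read trimming, Bowtie2 for alignment to hg38, MACS2 for peak calling against input, and bedtools to drop blacklisted regions. Versions, the handling of reads with several matches and the read depth are not given in the sources used here. The deposited fold enrichment is a ratio over the local background from the authors' MACS2 run. The deposited score and the −log10 p and q-values come from the same run, by the authors. These values served to apply thresholds.

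Peaks were merged with pandas 2.3.3, and annotated with protein-coding genes of GENCODE 44 on hg38, coordinates being 1-based. 31-mers were counted over hg38 without alternate contigs. log2 fold enrichment was fitted with limma 3.58.1 in R 4.3.3, with 4 group means and a mean-variance trend, no pseudocount and no filter, and Benjamini-Hochberg adjustment at 0.05. The fit was tested on simulated data. Alternatives covered merging, peak thresholds, windows, scaling, the measure, a replicate block and each list left out.

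The regions, gene lists, motifs and rules were chosen with earlier results of these data known. Named were the 25 nearest genes with most regions, the 10 regions with the highest lowest-list enrichment, the 10 largest clusters, the 5 regions with the smallest p in each direction of a contrast, genes of the fixed lists, the 5 intervals between Hs578T peaks with most regions, and up to 6 sequences.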

Additional observations from a re-analysis of the deposited data

Results flagged for a closer look

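In 11 regions the effect of TWEAK in MDA-MB-231 differed between the genotypes by the limma test of the difference itself, given here as the log2 effect in control cells minus that in Fn14 KO cells. The value was positive in m45 and m46 in PDE1C (1.26 and 0.59), m59 near VIPR2 (0.75) and m50 in HECW1 (0.59). It was negative in m68 in PAPPA (−0.99), m38 in FHIT (−0.92), m22 near CDRT15L2 (−0.82) and the contig regions m12 (−1.06), m15 (−0.89), m81 (−0.75) and m82 (−0.66). Of all regions tested, 12% had a positive and 10.4% a negative call.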

How the results depend on the processing

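The number of MDA-MB-231-specific regions was 55 with a −log10 q of at least 2 in MDA-MB-231 lists and 188 when counted in 500 bp bins, and for Hs578T-specific regions these were 81 and 592, with 104 after trimming every list to the shortest. For the MDA-MB-231-specific regions the median width was 2053 bp with a −log10 q of 2 in every list. Their share with a neighbour was 23.8% at the shortest distance tried, and AP-1 was present in 60.7% of their 1000 bp windows. In the order TWEAK in control cells, Fn14 KO against control and the difference of TWEAK effects, the 20, 25 and 11 calls became 8, 2 and 2 on covered base pairs, and 4, 2 and 1 in regions at or above the median fold enrichment, where 8 of the 84 were tested. On covered base pairs few of all 29889 regions passed upwards and downwards, 851 and 903, then 42 and 41, then 153 and 138 in that order. With quantile normalisation Fn14 KO against control had 15 calls and the difference 6. For Fn14 KO against control 14 of these were higher and 1 lower, against 2584 and 2399 of all 29889 tested. Non-overlap of lists gave 49, 27 and 51 regions for TWEAK in control cells, TWEAK in Fn14 KO cells and Fn14 KO against control, and cannot be computed for the difference. On covered base pairs m49 in control cells turned to 0.46, and for the difference m50 turned to −0.11 and m15 to 0.93. The cause was not tested.

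Leaving out 1 list at a time gave 84 to 96 MDA-MB-231-specific and 193 to 257 Hs578T-specific regions. Of the MDA-MB-231-specific ones, 0% to 2.20% lay near a start site, 35.8% to 41.9% had a neighbour and 24.7% to 29.7% held AP-1. Their median widths were 1669 to 1731 bp. Calls ranged from 9 to 27 for TWEAK in control cells, 0 to 0 in Fn14 KO cells, 10 to 25 for Fn14 KO against control and 5 to 14 for the difference.

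The replicate block gave 21, 0, 24 and 9 calls in the same order with Fn14 KO cells second. Deviations of same-numbered samples correlated between −0.07 and 0.09, so the numbers do not pair the samples. Depth is unknown, so no limit on detection can be set, and absence from a list is absence of a call.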
